A study of Drosophila melanogaster with 12 samples.

Results

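The 31 sarcomere genes described here encode the structural proteins of the contractile unit of muscle in Drosophila melanogaster. They form a fixed list of thick filament, thin filament, giant, M-band and Z-disc proteins of flight and body muscle. The list goes by what the proteins do, but it was chosen with earlier results of these data known. All 31 were found by their gene number among the 14760 genes listed at both ages. The data are poly(A) mRNA libraries, labelled as whole flies, of the w1118 strain, a white-eyed laboratory strain, of both sexes and at 10 and 30 days of age. All flies were mated and on the same SY10 diet after the sexes had been separated at 3 days, and no group received a further treatment. Each of the 4 groups (10-day-old females, 10-day-old males, 30-day-old females and 30-day-old males) had 3 libraries from independent experiments, and a library pooled 10 flies. The total count of a library ranged from 23097763 to 62924598, and the 30-day-old male replicate 2 was the shallowest.

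A sarcomere shortens when myosin heads of the thick filaments pull on the actin of the thin filaments. Calcium starts this by binding troponin C, which moves the troponin and tropomyosin complex on the thin filament. Thin filaments are anchored in the Z-disc, and giant elastic proteins connect the thick filaments to it. Insects carry several actin and troponin C genes that are used by different muscles, and the indirect flight muscle of the thorax has its own versions, among them Act88F, TpnC4 and flightin (fln).

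Levels are given as CPM, the count divided by the size of the library after scaling with TMM factors, which are meant to make libraries of different make-up comparable. Differences are log2 fold changes with their standard error (SE) from edgeR's quasi-likelihood test, with Benjamini-Hochberg adjustment over 14112 genes and a threshold of 0.05, and all 31 sarcomere genes passed the filter on low counts. Whole flies of the sexes differ in the share of their organs, and on this scale the median of all genes tested was 1.36 higher in males at 10 days and 1.71 higher at 30 days. The 6 neuron markers summed to 72.9 to 133 CPM in females and 583 to 937 CPM in males, and the 7 photoreceptor markers to 296 to 1473 and 5323 to 7880.1 CPM. The neuron marker Syx1A, named after its values were seen, went the other way (-1.29 at 10 days and -1.41 at 30 days). The 6 ovary germline markers summed to 1015 to 1575 CPM in females and 178 to 335 CPM in males. Most of the male sum came from orb, with means of 276 CPM at 10 days and 157 CPM at 30 days. At 10 days orb was not called, and grk was lower in males at neither age. Both are named after their values were seen. The 6 testis markers summed to 309 to 636 CPM in males, against 2.54 to 8.47 CPM in females. The sizes of the differences in level between the sexes below, and for most genes their directions, therefore belong to the TMM scale. Another scale made the summed level of the neuron and photoreceptor markers equal in all libraries. It lowered the median of all genes by 2.84 at 10 days and by 3.71 at 30 days. In that sum the photoreceptor markers outweighed the neuron markers in every library. Less RNA per cell and a smaller share of muscle cells cannot be told apart in such bulk samples.

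The sarcomere genes together took 0.299% to 0.590% of the counts of a female library and 1.01% to 1.34% of those of a male library, so the sexes did not overlap. Per kilobase of exon, Act57B, Mlc2 and wupA were the 3 highest genes in each of the 4 groups. At 10 days Act57B led in females, with 185 CPM per kilobase against 122 for Mlc2, and Mlc2 led in males, with 401 against 272 for Act57B. At 30 days Act57B led in both sexes, with 216 CPM per kilobase in females and 471 in males. Tm1 ranked 4 of 31 in females at both ages and 18 and 19 in males at 10 and 30 days, and Act87E ranked 4 in 10-day-old males and 12 in 10-day-old females. In every group fln, Zasp67 and TpnC4 were the 3 lowest genes, with means of at most 1.14 CPM per kilobase (TpnC4 in 10-day-old males).

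**Figure D1:**
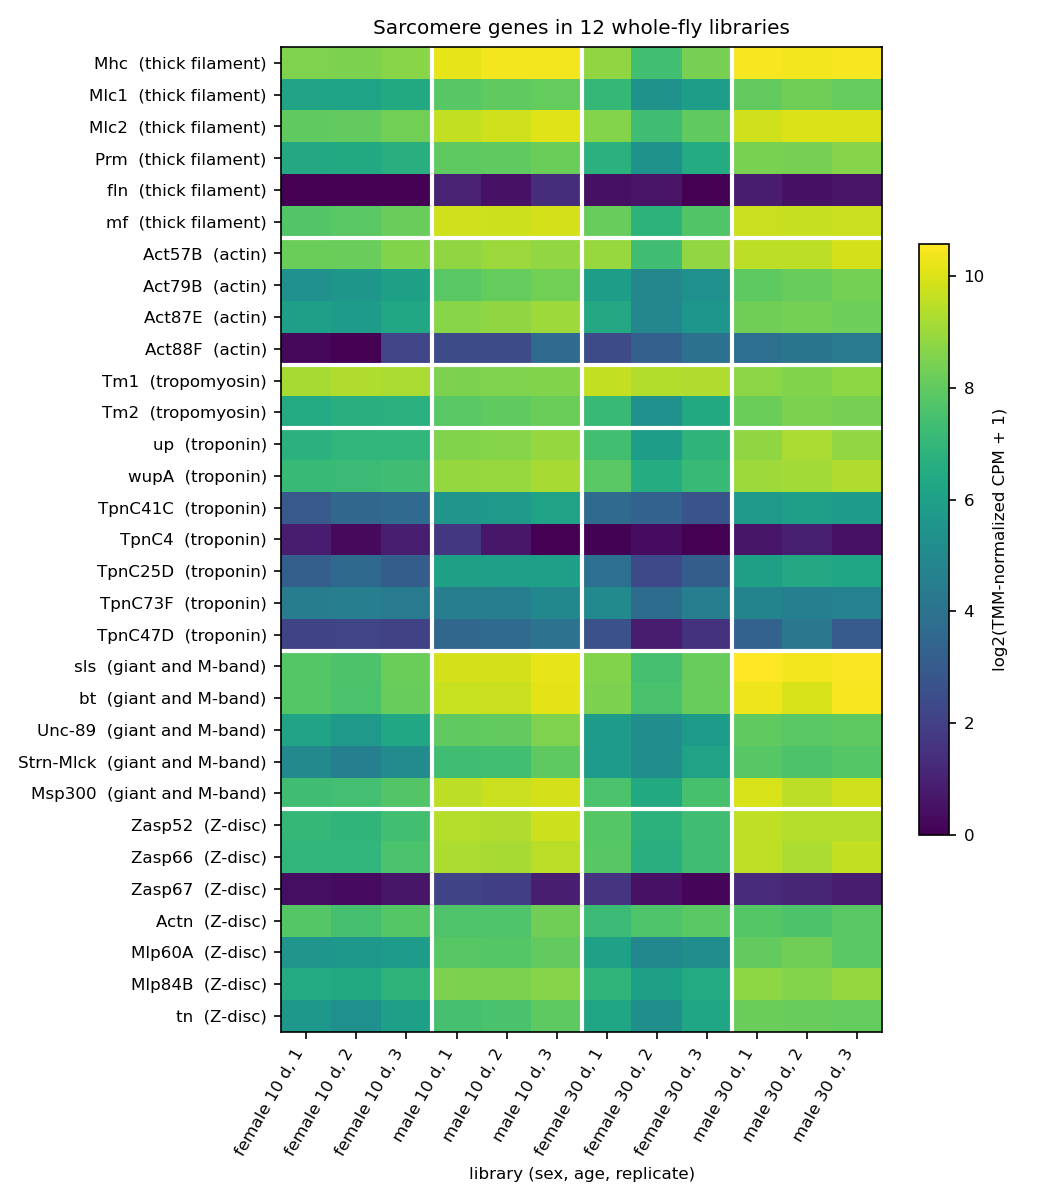
Heat map of log2(TMM-normalized CPM + 1) for the 31 sarcomere genes (rows, by role) in the 12 libraries (columns, by sex, age and replicate). Males are brighter than females for most rows on this scale, Tm1 is brighter in females, and fln, TpnC4 and Zasp67 are dark throughout.

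The genes of the indirect flight muscle were nearly absent from libraries labelled as whole flies. Act88F, the actin of the indirect flight muscle, had 11, 0 and 193 counts in the 10-day-old females, 171, 160 and 497 in the 10-day-old males, 203, 510 and 645 in the 30-day-old females and 505, 326 and 694 in the 30-day-old males. TpnC4, the troponin C of stretch activation in the same muscle, had 49, 12 and 46, 86, 22 and 0, 2, 16 and 0 and 20, 18 and 16 counts in the same order of groups. For fln, a thick filament protein of the flight muscle, the counts were 0, 0 and 0, 39, 16 and 67, 18, 29 and 0 and 30, 8 and 17. These are few counts beside Mhc, the muscle myosin heavy chain that all muscles share, which had 10079 to 56722 counts per library.

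Summed per kilobase, Act88F, TpnC4 and fln amounted to 0.107% to 4.79% of the sum of Act57B, Act87E, TpnC25D, TpnC47D and TpnC73F, which serve other muscles. The highest percentage came from the 30-day-old female replicate 2 and the lowest from the 10-day-old female replicate 2. In these libraries the markers of the flight muscle thus go against the label of whole flies, which hold this muscle, and the levels below cannot be read as covering it. This rests on Act88F, TpnC4 and fln. Genes of the jump muscle (TpnC41C, 5.69 to 66.4 CPM) and of leg and other tubular muscle (Act79B, 28.7 to 329 CPM) were detected in every library. Why Act88F, TpnC4 and fln were so low was not tested. The strand setting of the counting is not given in the sources used here. For fln, 61.6% of the exons overlap an antisense RNA gene (asRNA:CR45161), and reads from the overlapping part may have been counted for either gene. This limit concerns fln alone, since no exon overlap with another gene was found for Act88F or TpnC4. The antisense gene itself had 12 counts in 1 and no counts in 5 of the 10-day libraries.

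Male flies had the higher level of most sarcomere genes at 10 days. On the TMM scale 25 of 31 genes were higher in males, against 46.1% of all genes tested, and 1 of 31 was lower, against 28.6% of all genes tested. With factors from the neuron and photoreceptor markers this split turned to 1 higher and 13 lower, beside 2890 higher and 6913 lower of all 14112 genes tested. With TMM factors the median difference of the 31 genes was 2.00 on the log2 scale, beside 1.36 over all genes tested. Without fln, the genes called higher differed by 1.42 (Tm2) to 2.82 (Act87E), which is 2.67- to 7.07-fold. The libraries of the sexes did not overlap for 27 genes higher in males, against 49.4% of all genes tested, and for 1 gene lower in males, against 31% of all genes tested.

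At 30 days 24 of 31 sarcomere genes were higher in males on the TMM scale, against 48.2% of all genes tested. Lower in males was 1 gene, against 28.7% of all genes tested. With neuron and photoreceptor factors none was higher and 26 were lower, beside 2609 higher and 7311 lower of all 14112 genes tested. On the TMM scale the median difference was 2.13, beside 1.71 over all genes tested. The genes called higher differed by 1.13 (Act57B) to 3.11 (TpnC25D), which is 2.18- to 8.63-fold. The libraries of the sexes did not overlap for 25 genes higher and 1 gene lower in males, against 49.6% and 29.5% of all genes tested. The comparisons of the sexes at 10 and at 30 days used different libraries but shared 1 estimate of the spread.

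**Figure D2:**
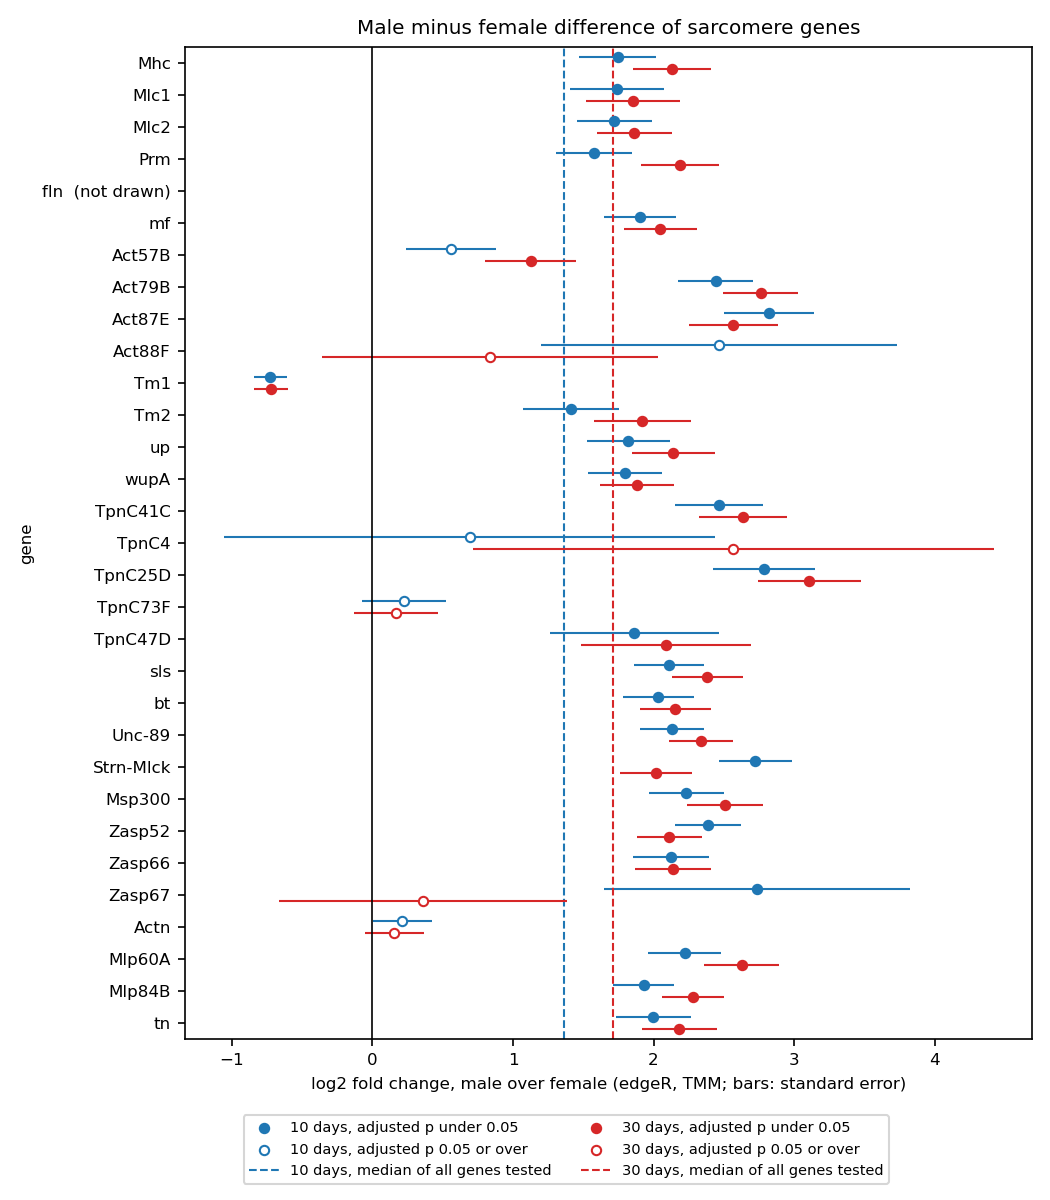
Log2 fold change of males over females (x axis, points with SE bars) for each sarcomere gene (y axis) at 10 days and 30 days, on the TMM scale, with dashed lines at the median of all genes tested (1.36 and 1.71). Filled points passed the adjusted p threshold, fln is not drawn because its 10-day-old females had no counts, and 24 genes called higher at each age changed sign with neuron and photoreceptor factors.

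Of the 6 thick filament genes, 6 were higher in males at 10 days and 5 at 30 days on the TMM scale, and all but fln changed sign with neuron and photoreceptor factors. Mhc stood at 371, 359.7 and 419 CPM in females and 1153, 1353 and 1349 CPM in males at 10 days, and 449.9, 165 and 334 CPM in females and 1402, 1330.2 and 1424 CPM in males at 30 days. Every male library lay above every female library, and the 30-day-old female replicate 2 was the lowest of all. The difference for Mhc was 1.75 ± 0.27 (SE, edgeR adjusted p = 0.00012) at 10 days and 2.13 ± 0.28 (adjusted p = 2.52e-05) at 30 days. Mlc1 and Mlc2, the essential and the regulatory light chain of myosin, differed by 1.74 and 1.72 at 10 days and by 1.85 and 1.86 at 30 days. These values are near that of Mhc, the chain they bind.

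Prm, which encodes the core protein paramyosin, differed by 1.58 ± 0.27 at 10 days and 2.19 ± 0.27 at 30 days. Its males moved from 264 ± 25.2 CPM (SD, n = 3) at 10 days to 361 ± 31.0 CPM at 30 days and its females from 88.4 ± 9.54 to 79.3 ± 33.6 CPM. The thick filament protein myofilin (mf) differed by 1.90 ± 0.26 and 2.05 ± 0.26 at 10 and 30 days. For fln all 10-day-old females were at 0, so its fitted fold change is not meaningful there. Its 10-day-old males had 1.04, 0.445 and 1.59 CPM, and against a floor of 3 counts per library their mean was at least 20.2-fold higher than in the 10-day-old females (edgeR adjusted p = 0.00489). At 30 days the sexes overlapped for fln, with 0.403, 0.475 and 0 CPM in females and 0.812, 0.401 and 0.471 CPM in males.

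Among the 4 muscle actin genes, Act79B and Act87E were higher in males at both ages and Act57B at 30 days on the TMM scale, all with a changed sign under neuron and photoreceptor factors, and Act88F passed edgeR's test on the 4 groups, with no block, at neither age. The 4 genes code for nearly the same protein, so reads may be assigned to the wrong member. Act87E, an actin of larval body wall and adult abdominal muscle, had 61.1, 54.3 and 78.7 CPM in females and 409.8, 449 and 514 CPM in males at 10 days, and 83.2, 28.8 and 46.7 CPM in females and 312, 326 and 301 CPM in males at 30 days. The male values were far above the female values at both ages, with a difference of 2.82 ± 0.32 (SE, edgeR adjusted p = 8.94e-06) at 10 days and 2.57 ± 0.32 (adjusted p = 1.61e-05) at 30 days. Act79B, an actin of leg and other tubular muscle, differed by 2.44 ± 0.26 and 2.76 ± 0.27.

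Act57B, the most abundant muscle actin gene here, had 290.4, 287 and 378 CPM in females and 448, 499.7 and 460.1 CPM in males at 10 days, and 495, 160.4 and 462 CPM in females and 741, 736 and 959 CPM in males at 30 days. At 10 days its males lay only slightly above its females, with a difference of 0.56 ± 0.32 (SE, edgeR adjusted p = 0.134). This missed the threshold, and it passed with RLE factors, with DESeq2, in the fit of the 6 libraries of that age and without the 30-day-old female replicate 2. At 30 days the difference was 1.13 ± 0.33 (adjusted p = 0.0079). For Act88F the difference was 2.47 ± 1.27 (adjusted p = 0.0955) at 10 days, where the female replicate 3 with 3.62 CPM stood apart from 0.164 and 0 CPM in the other females. Without that library the fitted difference was 6.22 (adjusted p = 0.000412), a value set by 11 counts in the females that were left. With all libraries Act88F was called higher in 10-day-old males by DESeq2 (2.69, adjusted p = 0.0343), by limma-voom (5.24, adjusted p = 0.00474) and by edgeR with the replicate number as a block (3.47, adjusted p = 0.0299).

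The tropomyosin genes moved in opposite directions on the TMM scale. Tm1 had 591, 641 and 601 CPM in females and 359, 366 and 383 CPM in males at 10 days, and 776, 652 and 630.4 CPM in females and 427, 380.2 and 442 CPM in males at 30 days. All female libraries were above all male libraries, by 1.65-fold at 10 days (log2 -0.73 ± 0.12, edgeR adjusted p = 0.000154) and 1.65-fold at 30 days (log2 -0.72 ± 0.12, adjusted p = 0.00015). Tm1 was the single sarcomere gene that was lower in males at either age, and it was called lower at both ages in every fit tried. Besides muscle tropomyosin, the Tm1 gene makes tropomyosins of the cytoskeleton outside muscle and takes part in RNA transport in the oocyte. Tm2, a muscle tropomyosin, was higher in males by 1.42 ± 0.34 at 10 days (adjusted p = 0.00266) and 1.92 ± 0.35 at 30 days (adjusted p = 0.000325), with a changed sign under neuron and photoreceptor factors.

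Of the 7 troponin genes, 5 were higher in males at each age on the TMM scale (with neuron and photoreceptor factors all 5 changed sign), and TpnC4 and TpnC73F were not called. Troponin T (up) differed by 1.82 ± 0.29 and 2.14 ± 0.30 and troponin I (wupA) by 1.80 ± 0.26 and 1.88 ± 0.26 at 10 and 30 days. Among the calcium-binding troponin C genes the contrast was wide. TpnC25D had 8.16, 11.3 and 7.60 CPM in females and 62.8, 61.9 and 62.2 CPM in males at 10 days, and 13.4, 4.06 and 7.81 CPM in females and 64.1, 81.5 and 72.4 CPM in males at 30 days. Its male libraries lay several times above its female libraries, by 6.90-fold at 10 days (edgeR adjusted p = 2.66e-05) and 8.63-fold at 30 days (adjusted p = 1.16e-05).

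TpnC73F, by contrast, had 21.0, 22.3 and 20.1 CPM in females and 22.1, 22.0 and 29.8 CPM in males at 10 days, and 31.5, 12.2 and 21.7 CPM in females and 26.3, 22.5 and 24.7 CPM in males at 30 days. Females and males overlapped at both ages, with differences of 0.22 ± 0.30 and 0.17 ± 0.30 (adjusted p = 0.507 and 0.61). TpnC41C, a troponin C of the jump muscle, differed by 2.47 ± 0.31 and 2.63 ± 0.31. TpnC47D differed by 1.86 ± 0.60 (adjusted p = 0.0144) and 2.09 ± 0.61 (adjusted p = 0.00793), and without the 10-day-old female replicate 3 its 10-day difference was 1.67 (adjusted p = 0.0507). TpnC4 had at most 2.30 CPM in any library and differed by 0.69 ± 1.75 and 2.57 ± 1.85, with no call.

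All 5 giant and M-band genes were higher in males at both ages on the TMM scale, with a changed sign for all 5 under neuron and photoreceptor factors. Sallimus (sls), which holds the elastic titin-like proteins that tie thick filaments to the Z-disc, had 221, 197 and 289 CPM in females and 938, 937 and 1175 CPM in males at 10 days, and 378, 176 and 277 CPM in females and 1524, 1350.3 and 1455 CPM in males at 30 days. The sexes were clearly apart, with differences of 2.11 ± 0.25 (SE, edgeR adjusted p = 1.31e-05) and 2.38 ± 0.25 (adjusted p = 4.96e-06). Projectin (bt) differed by 2.03 ± 0.25 and 2.16 ± 0.25, and obscurin (Unc-89), a protein of the M-band in the middle of the sarcomere, by 2.13 ± 0.23 and 2.34 ± 0.23. Msp300, a large nesprin-type protein that connects nuclei with the contractile apparatus, differed by 2.23 ± 0.27 and 2.51 ± 0.27.

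Strn-Mlck, a stretchin and myosin light chain kinase gene, had 30.8, 22.9 and 33.0 CPM in females and 160.3, 165 and 248 CPM in males at 10 days, and 56.5, 35.4 and 67.1 CPM in females and 229, 195 and 219 CPM in males at 30 days. Its difference was 2.73 ± 0.26 (edgeR adjusted p = 2.42e-06) at 10 days and 2.02 ± 0.25 (adjusted p = 1.88e-05) at 30 days. The smaller value at 30 days came with higher female levels, and the change of the sex difference with age, -0.71 ± 0.35, did not pass the test (adjusted p = 0.418).

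Of the 7 Z-disc genes, 6 were higher in males at 10 days and 5 at 30 days on the TMM scale, and all of these changed sign with neuron and photoreceptor factors. The PDZ and LIM protein Zasp52 differed by 2.39 ± 0.24 and 2.11 ± 0.23, and its relative Zasp66 by 2.12 ± 0.27 and 2.14 ± 0.27. The muscle LIM proteins Mlp60A and Mlp84B differed by 2.22 and 1.93 at 10 days and by 2.63 and 2.28 at 30 days. Thin (tn), a TRIM-type ubiquitin ligase needed to keep the sarcomere intact, differed by 2.00 ± 0.27 and 2.18 ± 0.27. The called Z-disc genes other than Zasp67 thus lay between 1.93 and 2.63 at both ages.

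Zasp67 had 20, 14 and 29 counts in the 10-day-old females and 131, 104 and 36 in the 10-day-old males. The sexes did not overlap, with 0.242 to 0.544 CPM in females and 0.856 to 3.50 CPM in males, and the difference of 2.73 ± 1.09 was called (edgeR adjusted p = 0.0387). The call was lost with total counts, with the replicate number as a block and when any of 6 single libraries was left out, with adjusted p of 0.0506 to 0.107 in those 6 fits. At 30 days its difference was 0.36 ± 1.03 (adjusted p = 0.753).

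Alpha-actinin (Actn), which cross-links actin in the Z-disc and also serves the cytoskeleton of other cells, had 221, 174 and 223 CPM in females and 203, 203 and 309.9 CPM in males at 10 days, and 146, 204 and 234 CPM in females and 218, 197 and 235 CPM in males at 30 days. The sexes overlapped at both ages, and the differences were 0.21 ± 0.21 (adjusted p = 0.369) and 0.16 ± 0.21 (adjusted p = 0.503). The exons of Actn overlap those of east by 15.7% on the other strand and those of usp by 5.03% on the same strand. The largest overlap of any other sarcomere gene but fln was 5.57% (Act57B with a small nucleolar RNA).

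The share of each gene in its own family does not depend on how libraries are scaled. Among the 4 muscle actins, Act57B made up 74.3 ± 1.21% (SD, n = 3) of the counts per kilobase in 10-day-old females and 40.4 ± 3.26% in 10-day-old males. At 30 days its share was 77.3 ± 5.64% in females and 57.7 ± 2.48% in males. No male library reached the lowest female share, and over both ages the male share was lower by 26.7 percentage points (exact permutation test within age, two-sided, p = 0.005, the smallest p that the 400 arrangements allow, n = 6 against 6). Act87E and Act79B took the larger part in males, by 15.3 and 11.9 points (exact permutation test, p = 0.005 for each). Act87E held 13.0 ± 0.738% in females and 34.0 ± 1.37% in males at 10 days. The share of Act88F did not differ between the sexes beyond its spread (exact p = 0.43).

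Each actin share had an exact p under 0.05 between the ages. These p-values lack the planned adjustment, come from 18 share tests and are not calls. The shares are tied to each other, since a gain of 1 gene lowers the others. Act87E fell by 8.79 points from 10 to 30 days (exact permutation test within sex, p = 0.005), by 3.14 points in females and by 14.4 points in males. Act57B gained 10.1 points (exact p = 0.025), 3.03 points in females and 17.3 points in males. Whether the sexes differed in this change was not tested. Without the 30-day-old female replicate 3 the gain of Act57B was 8.85 points (exact p = 0.05). Act88F gained 1.45 points (exact p = 0.005), and without any 1 of the 10-day-old females its exact p was 0.055 to 0.075. Act79B fell by 2.81 points (exact p = 0.04), and leaving out any 1 of 6 libraries gave an exact p of 0.05 to 0.085.

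In the troponin C family TpnC73F was the leading gene of females and TpnC25D that of males. TpnC73F made up 53.4 ± 2.43% in females and 19.5 ± 1.47% in males at 10 days, and 58.2 ± 4.86% and 18.7 ± 3.35% at 30 days. The male share was lower by 36.7 points (exact permutation test within age, two-sided, p = 0.005). TpnC25D was higher in males by 25.5 points (exact p = 0.005) and TpnC41C by 9.39 points (exact p = 0.01). All female libraries were below all male libraries for TpnC25D, with 15.6% to 22.4% against 37.5% to 48.2%. The shares of TpnC47D and TpnC4 did not pass (exact p = 0.19 and 0.47), and no troponin C share moved with age at a p under 0.05 (exact p = 0.095 to 0.89). In all, 18 such tests were run over the 9 genes, and these p-values are not adjusted.

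**Figure D3:**
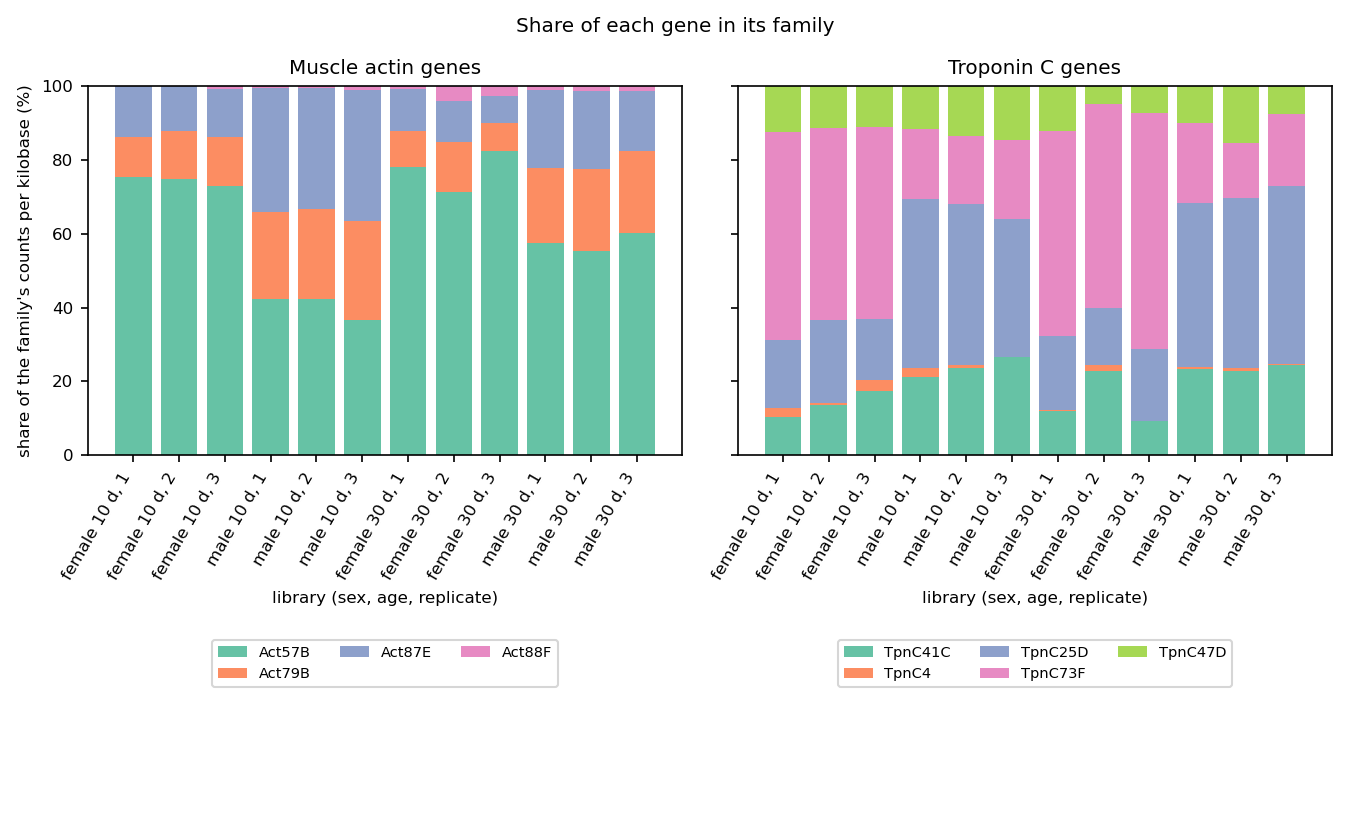
Share of each gene in the summed counts per kilobase of the 4 muscle actin genes (left) and the 5 troponin C genes (right), in percent, for each of the 12 libraries. Act57B fills 71.3% to 82.5% of a female bar and 36.7% to 60.3% of a male bar, and TpnC73F fills 52.0% to 63.8% of a female bar and at most 21.6% of a male bar.

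The ratio of a gene to Mhc within a library is free of scaling too, and it shows which sarcomere genes went with the myosin heavy chain between the sexes. It was formed for the 27 other genes with counts in every library and is given as a description. The log2 ratio of Mlc1 to Mhc differed between males and females by -0.0026 at 10 days and by -0.22 at 30 days, that of up by 0.07 and 0.0028, and that of Mlp84B by 0.20 and 0.08. These 3 genes kept close to Mhc, and their sexes overlapped.

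Of the 27 genes, 4 were lower against Mhc in males with no overlap of the sexes at either age, against 66.3% of all genes with counts in every library. Tm1 differed by -2.47 at 10 days and -2.97 at 30 days, and Actn by -1.55 and -2.07. TpnC73F differed by -1.53 and -1.98 and Act57B by -1.17 and -0.97. Another 4 of the 27 genes were higher against Mhc in males with no overlap at either age. This is near the 11% of all such genes. These were TpnC25D (1.07 and 1.02), Act87E (1.09 and 0.45), Act79B (0.71 and 0.56) and Msp300 (0.49 and 0.34).

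For other genes the sexes were apart at 10 days and overlapped at 30 days. Strn-Mlck was higher against Mhc in males by 0.97 with no overlap at 10 days and differed by -0.18 with overlap at 30 days. Zasp52 gave 0.64 without and -0.08 with overlap. In females, the ratio to Mhc was higher at 30 than at 10 days by 1.24 for Strn-Mlck and by 0.56 for Zasp52.

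**Figure D4:**
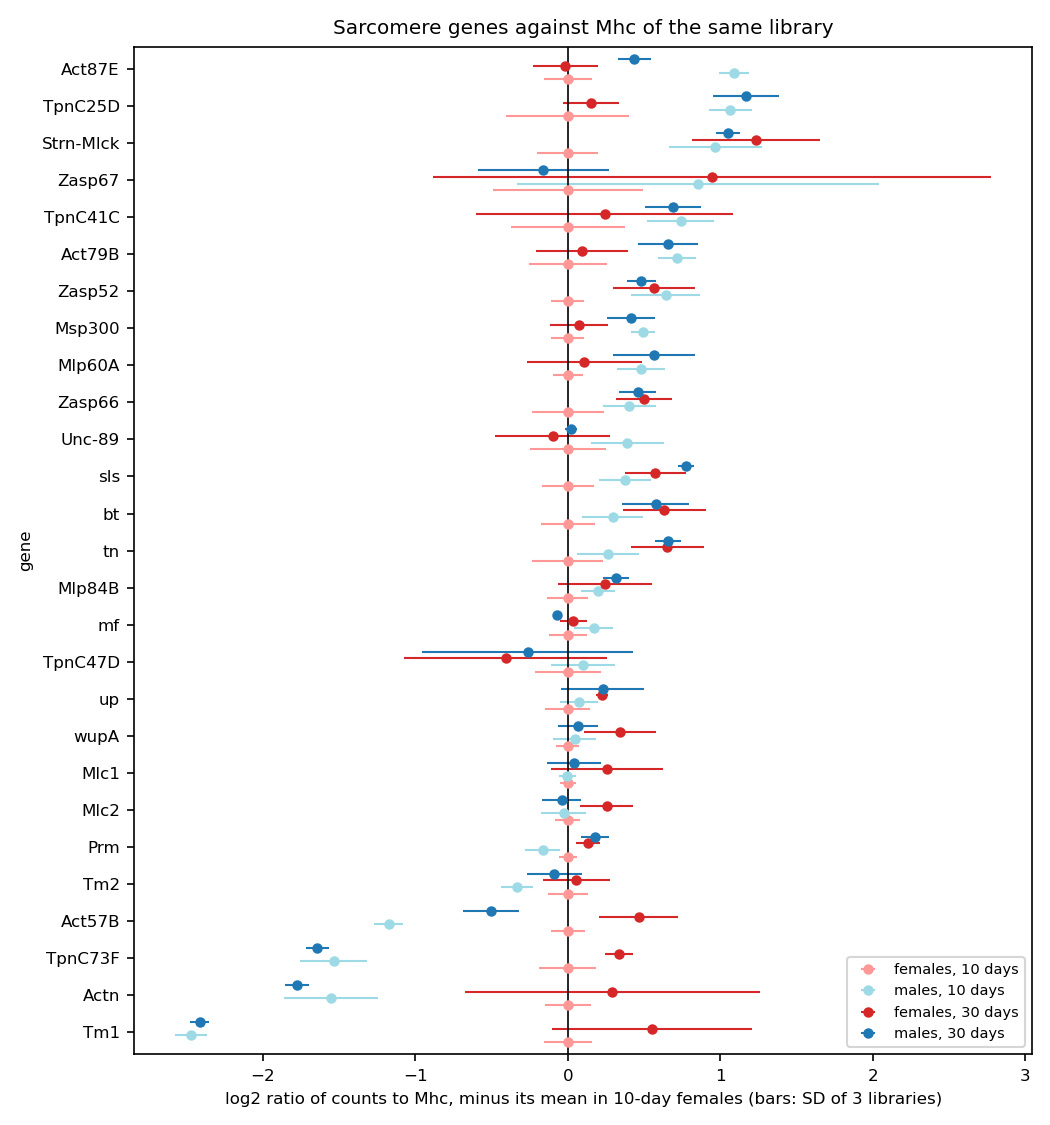
Log2 ratio of each sarcomere gene to Mhc in the same library (x axis, group mean with SD of 3 libraries, shown relative to the mean of 10-day-old females) for 27 genes (y axis, ordered by the sex difference at 10 days). Tm1, Actn, TpnC73F and Act57B lie to the left in males of both ages, and TpnC25D, Act87E, Act79B and Msp300 to the right.

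No sarcomere gene passed the threshold for age in edgeR's test. In males 0 of 31 genes were higher and 0 were lower at 30 than at 10 days by edgeR, against 0.184% and 0.262% of all genes tested, and DESeq2 and limma-voom called 0 as well. The median change was 0.13, beside -0.08 over all genes tested. 1 gene had an unadjusted p under 0.05, namely Act57B with a change of 0.79 ± 0.32 (edgeR adjusted p = 0.357). Its males had 469 ± 26.9 CPM (SD, n = 3) at 10 days and 812 ± 127 CPM at 30 days, and the libraries of the ages did not overlap. In the fit of the 6 male libraries alone Act57B (0.89, adjusted p = 0.00867) and sls (0.60, adjusted p = 0.034) passed, and without the 30-day-old female replicate 2 Act57B passed (0.86, adjusted p = 0.0437). The ages did not overlap in males for 7 genes higher at 30 days, against 9.86% of all genes tested, and for 3 lower, against 15.5%.

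In females again 0 of 31 genes were higher and 0 lower by edgeR, against 0.0213% and 0.305% of all genes tested, and the median change was -0.05, beside 0.00 over all genes tested. limma-voom called 0, and DESeq2 called 2, Strn-Mlck (0.89, adjusted p = 0.0275) and fln (adjusted p = 0.0335). 4 genes had an unadjusted p under 0.05 in edgeR. These were Strn-Mlck with 0.88 ± 0.25 (adjusted p = 0.169), Unc-89 with -0.49 ± 0.22, Act88F with 2.87 ± 1.28 and fln, which had no counts at 10 days. Act88F passed without the 10-day-old female replicate 3 (adjusted p = 0.0297). With neuron and photoreceptor factors 13 genes were higher at 30 days in females, beside 5568 of all 14112 genes tested. These factors moved the median of all genes by 1.13. In females the summed neuron markers stood at 129 to 133 CPM at 10 days and 72.9 to 104 CPM at 30 days. The summed photoreceptor markers stood at 733 to 1473 CPM and 296 to 732 CPM. The ages did not overlap in females for 2 genes higher at 30 days, against 5.12% of all genes tested, and for 0 lower, against 8.61%.

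The sex difference changed with age for 0 of 31 genes in either direction by edgeR, against 0.00709% of all genes tested in each direction, and DESeq2 and limma-voom called 0 too. 1 gene, fln, had an unadjusted p under 0.05 (adjusted p = 0.239). The intervals were wide beside the changes seen, for example 0.61 ± 0.37 for Prm and 0.57 ± 0.46 for Act57B. The 2 ages are given in separate tables, and the labels name no sequencing batch, so age and any difference in handling between the ages cannot be told apart. The age and sex comparisons draw on the same 12 libraries.

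**Figure D5:**
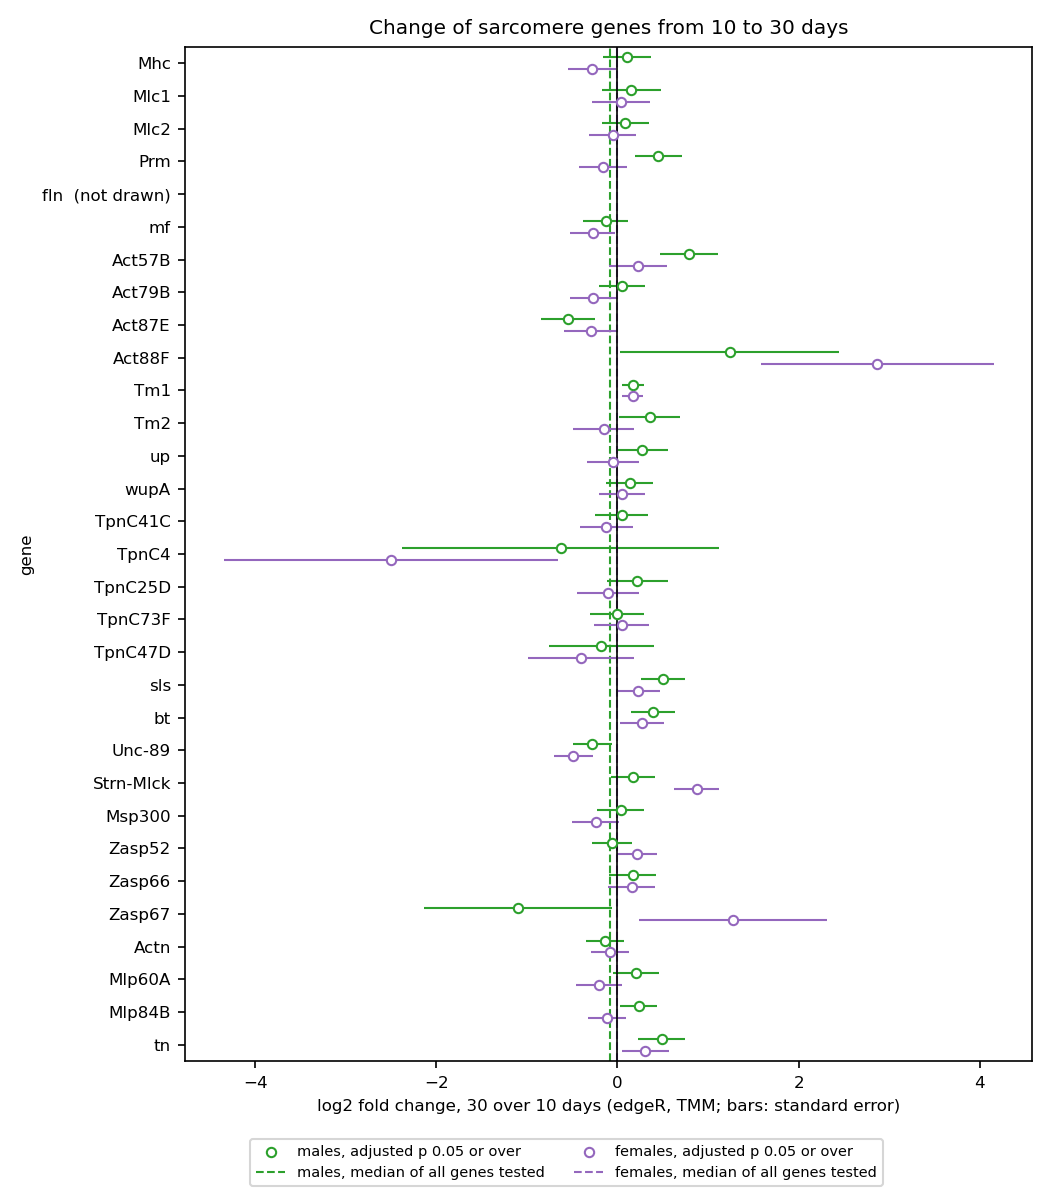
Log2 fold change of 30 over 10 days (x axis, points with SE bars) for each sarcomere gene (y axis) in males and in females, on the TMM scale, with dashed lines at the median of all genes tested (-0.08 and 0.00). All points are open because no gene passed the adjusted p threshold, and fln is not drawn because its 10-day-old females had no counts.

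The libraries of a group tended to be high or low for many sarcomere genes together. Of the 31 genes, 26 were highest of their group in the 30-day-old female replicate 1 and 24 were lowest in the 30-day-old female replicate 2. The 10-day-old female replicate 3 was highest of its group for 25 genes and the 10-day-old male replicate 3 for 26. Such counts were not made over all genes, so they cannot be called a trait of the sarcomere genes. Over the 26 genes with at least 100 counts in every library, the median coefficient of variation was 39.7% in 30-day-old females, against 8.92% to 15.5% in the other groups. The 30-day-old female replicate 2 had the lowest summed level of the sarcomere genes (2681 CPM) and of the photoreceptor (296 CPM), neuron (72.9 CPM) and fat body markers (163 CPM) of all libraries, and the highest ovary level (1575 CPM). The part of organ make-up in the sarcomere gene levels was not tested. Without the 30-day-old female replicate 2, 24 sarcomere genes were still called higher and 1 lower in males at 30 days. In that fit 6287 of all 14445 genes tested were higher and 3769 lower.

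Genes that work beside the sarcomere were compared between the sexes on the TMM scale alone, and the neuron and photoreceptor factors were not applied to them. Their counts stand beside 46.1% higher and 28.6% lower over all genes tested at 10 days and 48.2% and 28.7% at 30 days. All 5 calcium handling genes found at both ages were higher in males at both ages. The L-type calcium channel Ca-alpha1D differed by 3.63 ± 0.24 and 3.57 ± 0.23, and junctophilin (jp), which holds the calcium release sites together, by 2.66 ± 0.42 and 3.07 ± 0.43. SERCA, the pump that returns calcium to its store, was lower at 30 than at 10 days in males by -0.67 ± 0.12 (SE, edgeR adjusted p = 0.0395). Of 8 sarcomere assembly and filament-end genes, 3 were higher and 3 lower in males at each age, which is near the share of all genes. The sarcomere length factor sals differed by 2.57 ± 0.29 at 10 days, tropomodulin (tmod), which caps the pointed ends of thin filaments, by 1.79 ± 0.15, and flr, an actin disassembly factor, by -1.75 ± 0.19.

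Of 9 genes that attach muscle to tendon through integrin, 4 were higher and 3 lower in males at 10 days and 5 higher and 2 lower at 30 days, again near the share of all genes. The integrin subunits if and mew differed by 1.96 and 1.89 at 10 days, and the adaptor paxillin (Pax) by 1.17. The 3 lower at 10 days, named after their values were seen, were parvin (-1.06), Ilk (-0.66) and stck (-0.55), which encode partners in a complex that binds integrin. Of 7 regulators of muscle gene expression and splicing, 4 were higher and 1 lower at each age, beside 46.1% and 28.6% of all genes at 10 days. The splicing factor mbl differed by 3.01 ± 0.20 at 10 days, salm, which directs flight muscle fate, by 3.64 ± 0.46, and the splicing factor bru1 by -1.61 ± 0.21. In 10-day-old females bru1 had a mean of 934 CPM, beside 25.3 CPM for mbl. Whether the differences of bru1, mbl, salm and the calcium handling genes lay in muscle was not tested. Of 7 genes of the non-muscle actin and myosin cytoskeleton, 0 were higher and 3 lower in males at 10 days by edgeR, with tsr (cofilin) at -2.45 ± 0.15 and Act5C, a cytoplasmic actin, at -1.10 ± 0.14, and 1 was higher and 2 lower at 30 days. Act42A, the other cytoplasmic actin gene, also named after its values were seen, differed by 0.18 ± 0.12 (adjusted p = 0.218) and 0.04 ± 0.12 (adjusted p = 0.753), with no call.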

How the data were processed

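Poly(A) RNA of samples labelled as whole flies was sequenced as 150 bp paired-end reads in 12 libraries, 3 per sex and age. The authors deposited counts per gene as whole numbers without normalization. The aligner, counting tool, strand setting and genome build are not given in the sources used here. The authors' FPKM, scaled counts and test columns were not used.

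Genes of both ages were joined by gene number (14760 genes). The fit with edgeR 4.0.16 (R 4.3.3) used TMM factors, filterByExpr with a minimum count of 10, 4 groups and Benjamini-Hochberg adjustment, and was tested on simulated data. Alternatives used limma 3.58.1 and DESeq2 1.42.0. Lengths are union exons of BDGP6.54, whose build may differ from that of the authors.

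All sarcomere genes may be named. Of the other lists, at most the 3 called genes with the largest difference per comparison are named, with the exceptions given beside them. Members and lists were chosen with earlier results of these data known. The planned test of the flight to other muscle ratio is given as values only, and shares without the planned adjustment, for the same reason.

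A count of 0 allows up to 3 counts, and this floor covers counting error only.  The replicates came from independent experiments, per the methods of the study. Figures were drawn with matplotlib 3.10.9.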

Additional observations from a re-analysis of the deposited data

How the results depend on the processing

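Most calls on the sarcomere genes held under the alternatives tried, and the factors from the neuron and photoreceptor markers changed the largest number of them. With factors that equalise the sum of the neuron and photoreceptor markers, the count of genes higher in males went from 25 to 1 at 10 days. That of genes lower went from 1 to 13. At 30 days these counts went from 24 to 0 and from 1 to 26. With age in females 13 genes became higher, beside 5568 of all 14112 genes tested. The log2 differences that changed sign at 10 days were then Mhc -1.13, Mlc1 -1.15, Mlc2 -1.16, Prm -1.30, mf -0.98, Act79B -0.45, Act87E -0.0804, Tm2 -1.44, up -1.02, wupA -1.06, TpnC41C -0.39, TpnC25D -0.0132, TpnC47D -0.96, sls -0.79, bt -0.86, Unc-89 -0.77, Strn-Mlck -0.16, Msp300 -0.65, Zasp52 -0.50, Zasp66 -0.79, Zasp67 -0.28, Mlp60A -0.65, Mlp84B -0.97 and tn -0.91. At 30 days they were Mhc -1.52, Mlc1 -1.86, Mlc2 -1.82, Prm -1.45, mf -1.61, Act57B -2.47, Act79B -0.95, Act87E -1.12, Tm2 -1.74, up -1.52, wupA -1.82, TpnC41C -1.18, TpnC25D -0.57, TpnC47D -1.60, sls -1.30, bt -1.53, Unc-89 -1.33, Strn-Mlck -1.60, Msp300 -1.11, Zasp52 -1.57, Zasp66 -1.54, Mlp60A -1.09, Mlp84B -1.42 and tn -1.44. These factors moved the median of all genes by -2.84 and -3.71, whereas RLE factors moved it by 0.23 and 0.22, upper quartile factors by 0.11 and 0.24 and total counts by -0.24 and -0.31. With those 3 scalings, DESeq2, limma-voom, both filters and the fit of 6 libraries, 24 to 27 genes were higher and 1 lower in males at 10 days, and 24 higher and 1 lower at 30 days. Of the 12998 to 14760 genes tested in those fits, 6115 to 7059 were higher and 3634 to 4477 lower at 10 days. At 30 days 6293 to 7287 were higher and 3640 to 4542 lower. A call rule that also asks for an absolute log2 fold change over 1 left 0 genes lower in males at each age, since Tm1 stayed under that size. For age, the fit of 6 libraries called 2 genes higher in males, beside 379 of all 13724 genes tested. DESeq2 called 2 higher in females, beside 147 of all 14112 genes tested. The cause was not tested.

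Leaving out 1 library at a time gave 24 to 26 genes higher in males at 10 days and 24 at each omission at 30 days, and 0 to 1 gene higher with age in males and in females. Of the 14341 to 14447 genes tested in these fits, 5760 to 6468 were higher in males at 10 days and 6287 to 6856 at 30 days. With age 0 to 44 were higher in males and 0 to 24 in females. With the replicate number as a block, 25 genes were higher and 1 lower in males at 10 days and 24 and 1 at 30 days, and none was called for age. Of all 14112 genes tested with the block, 6109 were higher and 3966 lower at 10 days and 6402 and 3987 at 30 days. Deviations from the group means were correlated between libraries of different groups. Same-numbered libraries gave -0.0931 to 0.0487 (median -0.0038), and differently numbered ones -0.0797 to 0.0848. These values over all genes cannot tell whether equal numbers mark a shared experiment. Under the block Act88F passed at 10 days (3.47, adjusted p = 0.0299) and Zasp67 did not (2.36, adjusted p = 0.0935). Of single calls at 10 days, Zasp67 also lost its call with total counts and in 6 of the fits without 1 library and TpnC47D in 1 such fit, and Act57B and Act88F gained one under the alternatives given with their values. The counts of fln, TpnC4, Zasp67 and Act88F were few. Act88F had 11 counts in the deepest library (10-day-old female replicate 1) and 326 in the shallowest (30-day-old male replicate 2). These libraries also differ in sex and age, so they do not show whether the counts followed depth.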
